A study of Mus musculus with 18 samples.

Results

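The RNAs described here were the abundant noncoding RNAs of a translating ribosome affinity purification (TRAP) experiment on mouse brain. They were selected on their mean count: a row of the count matrix was taken when its gene type was not protein-coding and its mean over the 17 usable libraries was at least 200 estimated counts. Of the 36172 rows, 14159 were not protein-coding, 2401 of these had a count in at least 1 library, and 185 reached the minimum. The ribosomal RNA precursor Rn45s, Gas5, Zfas1 and rows whose symbols begin with Snhg, Rpl or Rps were left aside, which removed 9 of the 185 and left 176 members. The gene type of 141 members was miscRNA, mostly long noncoding RNAs (lncRNAs), and of 35 it was pseudo, for pseudogenes. Since the choice rested on counts alone, the levels of the members are a description, whereas the contrasts between groups were not used to choose them. The mean was taken over all groups, so a member could qualify through the groups in which it was high: 138 members had a mean of at least 200 estimated counts in each of the 4 groups, 171 in Input PBS, 175 in Input LPS, 146 in Positive PBS and 152 in Positive LPS. Members just inside the minimum were Gm15663, Rdh18-ps and Zfp783 with means of 201, 202 and 203 counts, and the rows just outside were 4932416H05Rik, Ppp4r1l-ps and Gm10653 with 199, 197 and 196.

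The mice carried Cx3cr1-cre/ERT2 and the NuTRAP transgene, were about 3 months old when tamoxifen switched on an EGFP-tagged ribosomal protein in Cx3cr1-expressing cells, and received 1 intraperitoneal injection of lipopolysaccharide (LPS) at 5 mg/kg or of phosphate-buffered saline (PBS) 3 to 4 weeks later. Both treatments shared the transgenes and the tamoxifen. In the brain the Cx3cr1 promoter is active mainly in microglia, the resident macrophages, and also in other Cx3cr1-expressing macrophages. Brain was collected 24 h after the injection, the supernatant of the centrifuged homogenate gave the input, and an antibody to GFP pulled down the tagged ribosomes with their RNA, the positive fraction. Each of 9 animals, 6 female and 3 male, gave 1 input and 1 positive library, named here by group and animal number. Values are listed in the order of animals 268, 272, 273 and 506 for Input PBS and Positive PBS, of 266, 267, 270 and 507 for Input LPS, and of 266, 267, 270, 271 and 507 for Positive LPS.

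Long noncoding RNAs act as RNA rather than as templates for protein. Some build nuclear bodies, as Neat1 does in paraspeckles and Malat1 near splicing speckles. Xist coats the inactive X chromosome of female cells, imprinted transcripts such as Meg3 are made from a single parental allele, and many others are carriers whose introns or exons are cut into microRNAs or small nucleolar RNAs. Ribosomes work in the cytoplasm, whereas several of these transcripts are known to stay in the nucleus.

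MicroRNAs were carried by 10 members, counted as RefSeq hairpins (GRCm38.p6) inside the member's span on its strand. Mature sequences of 6 carriers described below are given because the seed, bases 2 to 8 in capitals here, sets which messages a microRNA can pair with. The counts below are of the polyadenylated carrier and do not measure the mature microRNA.
miR-29b-3p: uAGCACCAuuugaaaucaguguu
miR-29c-3p: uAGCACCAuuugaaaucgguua
miR-9-5p: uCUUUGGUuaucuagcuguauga
miR-9-3p: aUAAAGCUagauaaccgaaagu
miR-22-3p: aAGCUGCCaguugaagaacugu
miR-125b-5p: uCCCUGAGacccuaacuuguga
miR-370-3p: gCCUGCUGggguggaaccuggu
miR-410-3p: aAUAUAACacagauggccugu
The first pair, encoded at chr1:195037091-195037113, plus strand, and chr1:195037600-195037621, plus strand, lies in A330023F24Rik, and the 2 sequences share the seed AGCACCA. The miR-9 arms come from AI854517 (Mir9-3hg in RefSeq; chr7:79505279-79505301, plus strand, for the 5p arm), miR-22-3p from Mir22hg (chr11:75463772-75463793, plus strand) and miR-125b-5p from 2610203C20Rik (chr9:41581940-41581961, plus strand). The last 2 belong to the imprinted domain of chromosome 12, miR-370-3p in Rian (chr12:109618305-109618326, plus strand) and miR-410-3p in Mirg (chr12:109743764-109743784, plus strand), where Mirg spans 10 hairpins. A930011O12Rik is named Mir124a-1hg in RefSeq, but no hairpin lay inside its span, so it is not among the 10.

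Counts of a few RNAs dominated. The 17 libraries held between 22968939 and 35123345 estimated counts, and the members took 1.49 to 1.66% of an input library and 0.695 to 1.19% of a positive library. Meg3 alone took 29.8 to 32.8% of the members' normalised counts in input and 14.7 to 21.4% in the positive fraction. Malat1 took 4.91 to 7.67% in input and 2.58 to 14.2% among positive libraries. The 10 members with the highest means were Meg3, 2900097C17Rik (Norad in RefSeq), Malat1, Peg13, Rian, Miat, Xist, Kcnq1ot1, 9530082P21Rik and A930011O12Rik, and they took 63.3 to 68.3% of the members' counts in input and 47.6 to 63.8% in the positive fraction. These are counts per gene and not per length, so they do not rank molecules.

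Some libraries stood apart, and this bears on much of what follows. The input library of animal 271 held 1252 counts, with a count for 7 members, and was left out. Positive PBS 268 and Positive LPS 266 had the highest share of member counts among the positive libraries, 1.05 and 1.19%, against 0.695 to 0.840% in the others. Positive LPS 271 held more of the left-aside Rn45s than any other library, with 411785 normalised counts. Microglial markers summed to 222991 to 264341 normalised counts in Positive PBS and 195858 to 271708 in Positive LPS, against 11636 to 17225 in input, all 9 markers being detected. Oligodendrocyte markers were lower in the positive fraction, at 16197 to 26521 against 55516 to 140158, whereas neuronal markers spanned 140367 to 210809 in positive libraries and 165034 to 191884 in input libraries. Astrocyte markers ranged from 99352 to 149014 and from 94235 to 122042, respectively.

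The spread between positive libraries was wide for several nuclear RNAs. The standard deviation (SD) of log2(normalised count + 1) within groups, pooled over the 9 positive libraries, had a median of 0.25 over the 176 members, 0.20 over the 14803 genes tested and 0.17 over the 11268 tested protein-coding rows with a mean of at least 200 counts. Over the 8 input libraries the medians were 0.16, 0.17 and 0.14. These are descriptions without a test. The widest spread belonged to Xist, with an SD of 3.49, against 3.45 in input. Each group held both sexes, so this SD includes the difference between females and males. Xist is described in female animals below. It was followed by A330023F24Rik (1.30, against 0.46 in input), Neat1 (1.27 against 0.63), Mirg (1.13 against 0.27), Malat1 (1.02 against 0.24), 4933439C10Rik (0.94 against 0.20), A930011O12Rik (0.92 against 0.32) and 6720401G13Rik (0.91 against 0.16), the transcript named Firre in RefSeq. Among all 176 members, 38.6% were highest in animal 268 of the Positive PBS libraries and 43.8% in animal 266 of the Positive LPS libraries. Of the 20 members with the largest spread, which a single high library helps to choose, 17 and 19 were highest there. Over all 14803 genes tested, 28.4% were highest in Positive PBS 268 and 21.7% in Positive LPS 266.

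Malat1, a nuclear lncRNA (minus strand of chr19:5795690-5802671, Mm10 as in the deposited matrix), showed this most plainly. It held 28286, 21969.8, 23502 and 20748 normalised counts in Input PBS and 25431, 29200.5, 33422 and 21571 in Input LPS. In Positive PBS it held 28762, 5554, 6596 and 6899.7, and in Positive LPS 49535, 8681, 11842, 15965 and 19922. Animal 268 was the only PBS animal, and animal 266 the only LPS animal, in which the positive library reached the range of the input libraries. Both animals were female, as were animals 270, 271, 506 and 507, which were lower.

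Neat1, the scaffold of paraspeckles and a neighbour of Malat1 on chromosome 19, held 4066, 1671, 1440.4 and 1269 normalised counts in Positive PBS and 5128, 1044, 394, 453 and 2077 in Positive LPS. It held 6862, 8225, 7079 and 5119.7 in Input PBS and 6083, 4649, 1603 and 4597 in Input LPS. Animals 268 and 266 were again the highest of their positive groups, with animal 507 next after 266. Animal 270 was the lowest in both fractions. A330023F24Rik, the miR-29 carrier, held 1691, 531, 499 and 515 in Positive PBS and 3144, 686, 299, 232 and 1411 in Positive LPS. Its 5 LPS libraries followed the order of Neat1 apart from the lowest pair, animals 270 and 271. Mirg, the microRNA carrier of the imprinted domain, held 396, 83.4, 117 and 83.7 and 372, 73.4, 59.6, 62.8 and 205, so that animals 268, 266 and 507 lay above the other 6.

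Not every abundant RNA followed. 2900097C17Rik, the Norad transcript that binds Pumilio proteins in the cytoplasm, held 23630.2, 29534, 29343 and 26815 normalised counts in Positive PBS and 26046, 28191, 28837, 47135 and 23243 in Positive LPS. Here animal 268 was the lowest PBS library and animal 271 stood above the other LPS libraries. Peg13, an imprinted transcript inside Trappc9, held 13430.2, 15090.5, 15862 and 12873 and 9813, 12376, 13636, 18085 and 11107, with animal 266 lowest. Tug1 held 2748, 3007, 2948 and 2925 and 2473, 2728, 2158, 2244 and 2570.2, a narrow range with an SD of 0.11. Animal 268 had the lowest neuronal marker sum of the Positive PBS libraries, 183249 normalised counts against 196333 to 210809, and lay within the range of the others for microglia, astrocytes, oligodendrocytes and endothelium. Its neutrophil and erythrocyte sums were the highest of Positive PBS, at 123 against 30.6 to 48.1 and 523 against 204 to 306. Animal 266 had the lowest microglial and neuronal sums of the Positive LPS libraries, 195858 and 140367 normalised counts, against 232076 to 271708 and 159377 to 188837 in the others. Its neutrophil sum was the highest of that group, 821 against 304 to 753, and its erythrocyte sum, 196, lay within the range of the others. The part of these sums in the spread was not tested.

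**Figure D1:**
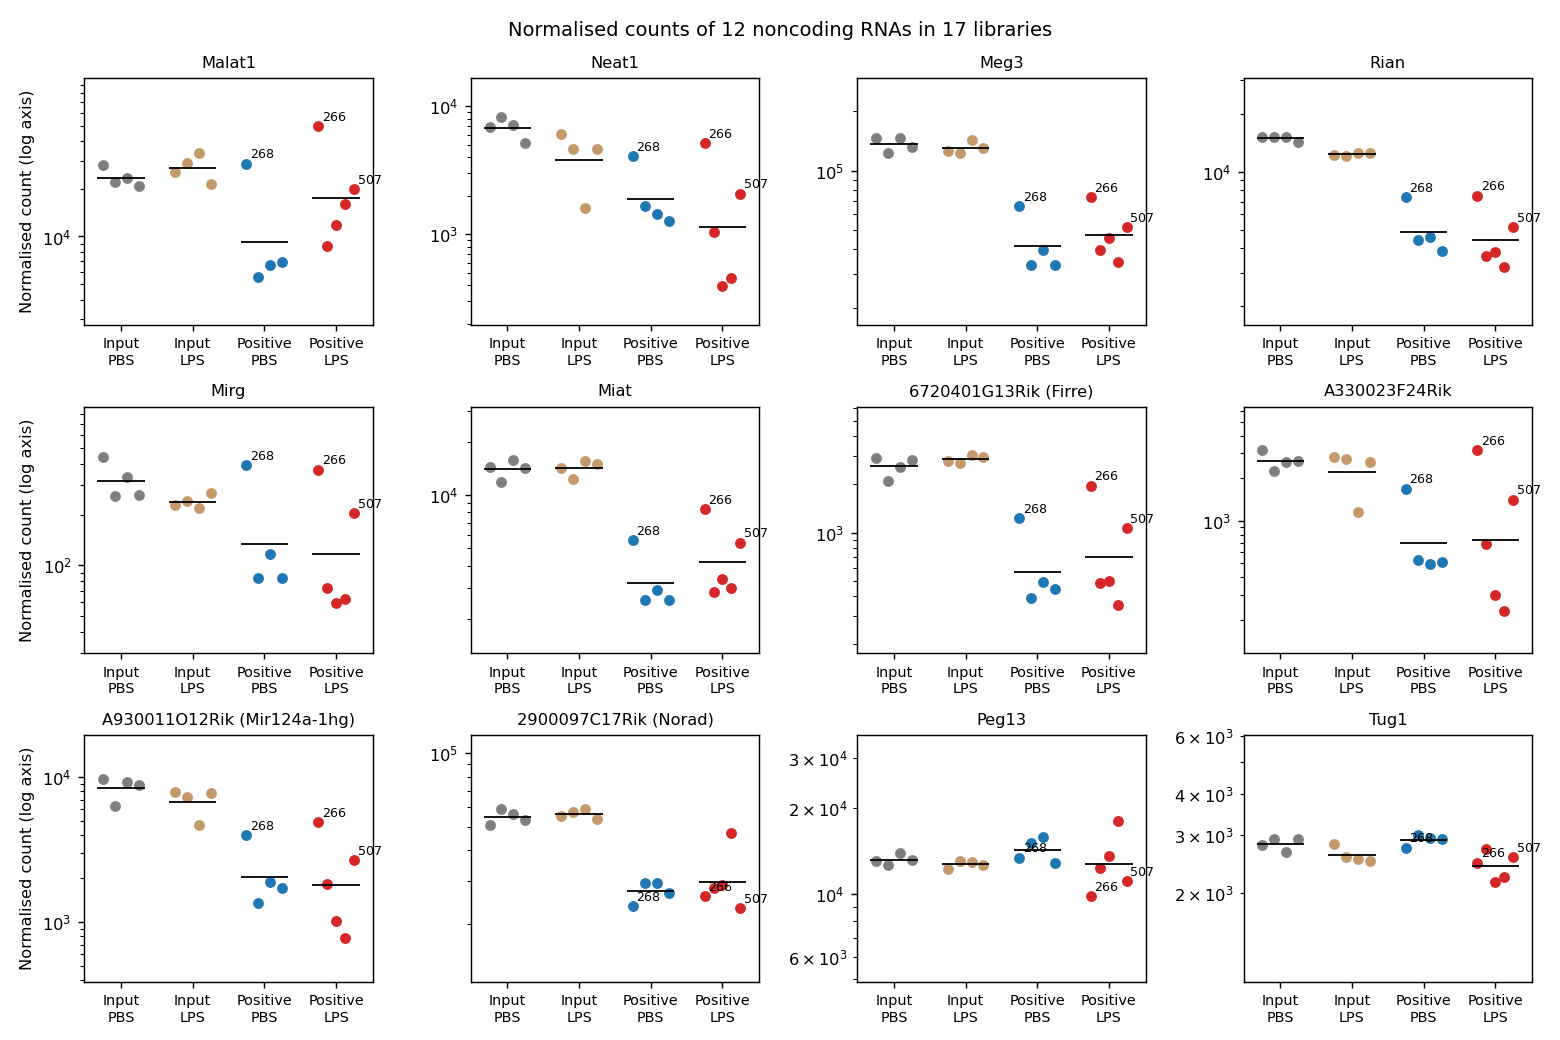
Normalised counts (log axis) of 12 noncoding RNAs in the 17 libraries, each point 1 library and each line the geometric mean of its group, with animals 268, 266 and 507 labelled in the positive fraction. Malat1, Neat1, Meg3, Rian, Mirg, Miat, 6720401G13Rik, A330023F24Rik and A930011O12Rik were highest in animals 268 and 266 of their positive groups, whereas 2900097C17Rik, Peg13 and Tug1 were not.

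**Figure D2:**
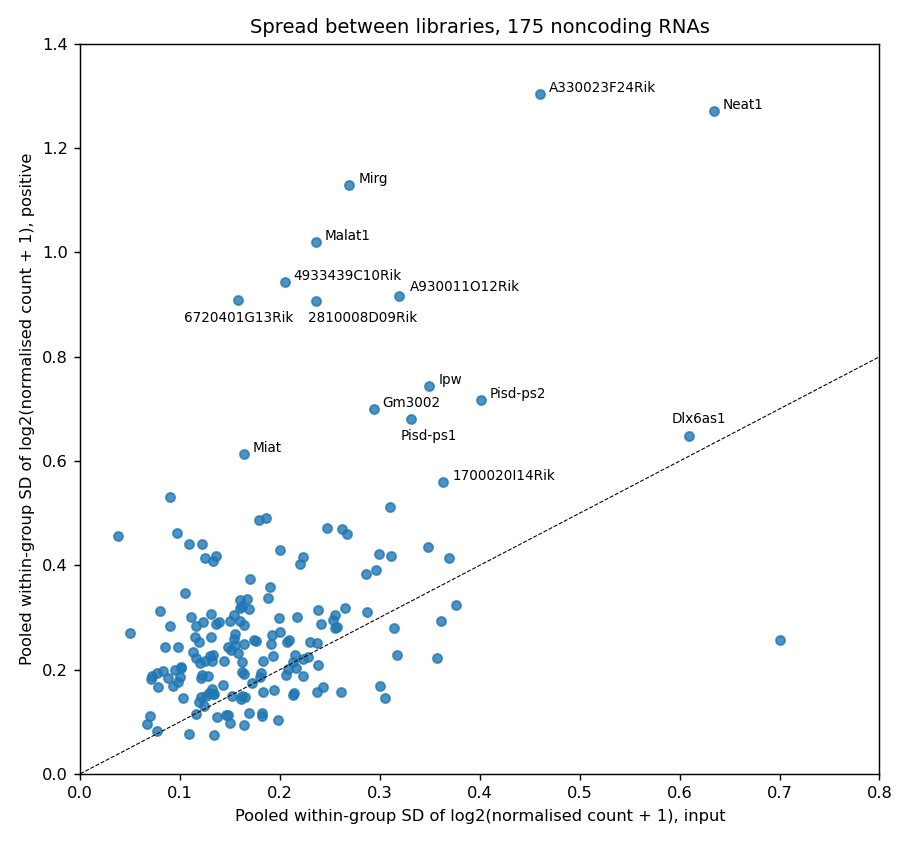
Spread of 175 noncoding RNAs (Xist left out) between libraries, as the within-group SD of log2(normalised count + 1) pooled over the 2 groups of the input (horizontal) and of the positive fraction (vertical), each point 1 RNA and the dashed line equality. A330023F24Rik, Neat1, Mirg and Malat1 lie above 1 in the positive fraction and below 0.64 in input.

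In tissue libraries, fewer cells of a type and less RNA per cell cannot be told apart. The first pair of comparisons asked which noncoding RNAs were recovered with tagged ribosomes, positive over input, within each treatment. A difference was called when the adjusted p of edgeR's quasi-likelihood test was under 0.05 (Benjamini-Hochberg over the 14803 genes tested) and the log2 fold change was beyond 0.32 in either direction. In PBS animals 84 of the 176 members were called, 70 lower and 14 higher in the positive fraction. Over all genes tested 39.8% were called, 18.8% lower and 21% higher. In LPS animals 107 members were called, 85 lower and 22 higher, against 53.4%, 25.8% and 27.6% of all genes. The median log2 fold change of the members was -0.30 in PBS and -0.37 in LPS animals, and that of all genes was -0.00 and -0.03. In both treatments 63 members were lower and 9 higher, and none was called in opposite directions. Since 146 of the members reached 200 counts in Positive PBS and 171 in Input PBS, the number of lower members was not independent of how they were chosen. Without Positive PBS 268 and Positive LPS 266 the calls numbered 94 in PBS and 117 in LPS animals. This pair was left out after the data were seen, because nuclear RNAs were highest in these libraries. Fits without the pair, here and below, are therefore not independent of that choice and are given as a description.

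Meg3 and Rian, imprinted transcripts of chromosome 12, were lower in the positive fraction. Meg3 (plus strand of chr12:109540996-109571729), made from the maternal allele, held 146722, 123284, 146827 and 132015 normalised counts in Input PBS and 66168, 33358, 39783 and 33045 in Positive PBS. In LPS animals it held 126221, 123346, 142727 and 130918 in input and 73348, 39436, 45479.5, 34473 and 51560.2 in the positive fraction. The fractions did not overlap in either treatment, and the log2 fold changes were -1.67 ± 0.22 (adjusted p = 4.87e-06) and -1.42 ± 0.20 (adjusted p = 7.93e-06), each ± SE. Rian, the neighbouring carrier of box C/D small nucleolar RNAs, had 15124, 15206, 15164 and 14271 in Input PBS and 7370.0, 4409.9, 4570.1 and 3855 in Positive PBS. Its log2 fold changes were -1.56 ± 0.22 (adjusted p = 1.28e-05) in PBS and -1.40 ± 0.20 (adjusted p = 1.16e-05) in LPS animals. Mirg, which follows Rian on the same strand, did not pass in either treatment, with -0.93 ± 0.53 (adjusted p = 0.162) and -0.65 ± 0.50 (adjusted p = 0.273). Most positive libraries of Mirg lay under 200 counts, so it reached the minimum with the help of input. Its values between the fractions and their p-values, in every fit given here, were therefore not independent of how it was chosen. For Mirg the call also turned on the libraries and the method. Without Positive PBS 268 and Positive LPS 266, the pair chosen after the data were seen, the values were -1.79 ± 0.36 (adjusted p = 0.000644) and -1.26 ± 0.32 (adjusted p = 0.00252). With the animal as a block the PBS value was -1.18 ± 0.36 (adjusted p = 0.0113). On the counts without a block, limma called Mirg in both treatments.

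Other imprinted members differed among themselves. Ipw, from the Prader-Willi domain of chromosome 7 (minus strand of chr7:59619158-59678878), held 1078, 511, 691 and 969 in Input PBS and 339.8, 110.2, 138 and 138 in Positive PBS, and had the lowest log2 fold change of the members in PBS animals, -2.16 ± 0.39 (adjusted p = 0.000181). Apart from animal 268, its Positive PBS libraries lay under 200 counts, so Ipw reached the minimum through other groups, input among them. Its PBS value and rank were therefore not independent of how it was chosen. In LPS animals its value was -1.31 ± 0.35 (adjusted p = 0.0036). Kcnq1ot1, the antisense transcript that silences genes of its domain on the paternal chromosome, had -0.94 ± 0.20 (adjusted p = 0.000925) and -0.77 ± 0.19 (adjusted p = 0.00178). Peg13 did not pass, with 0.12 ± 0.13 (adjusted p = 0.488) and 0.03 ± 0.13 (adjusted p = 0.831), and it overlaps Trappc9 on the same strand, so reads could be shared. Of the 5 members on the imprinted list, Meg3, Rian and Kcnq1ot1 were lower in both treatments.

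Among the 9 members listed for nuclear architecture and X inactivation, 6 were lower in PBS and 5 in LPS animals, with none higher. Of all 176 members 70 and 85 were lower, and of all genes 18.8% and 25.8%. Miat, a nuclear RNA of neurons, held 14517, 11856, 15890.0 and 14220.4 normalised counts in Input PBS and 5579.9, 2552, 2889 and 2544 in Positive PBS. It held 14304, 12403, 15767 and 15012 in Input LPS and 8329.8, 2848, 3372, 3002 and 5399 in Positive LPS. The fractions did not overlap, and the log2 fold changes were -2.06 ± 0.30 (adjusted p = 2.41e-05) and -1.65 ± 0.28 (adjusted p = 6.23e-05). 6720401G13Rik (Firre), an X-linked RNA of nuclear organisation, had -2.03 ± 0.43 (adjusted p = 0.000929) and -1.73 ± 0.40 (adjusted p = 0.00112). 1700020I14Rik (Oip5os1 in RefSeq) had -1.19 ± 0.30 (adjusted p = 0.00378) and -1.14 ± 0.28 (adjusted p = 0.00206), and 2900097C17Rik (Norad) had -1.005 ± 0.15 (adjusted p = 3.85e-05) and -0.87 ± 0.15 (adjusted p = 5.08e-05). Tug1 did not pass, with 0.04 ± 0.08 (adjusted p = 0.683) and -0.10 ± 0.07 (adjusted p = 0.238).

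For Malat1 and Neat1 the outcome depended on the libraries that stood apart and on the method. With limma, Malat1 in PBS and Neat1 in LPS animals were called, both on the deposited log2 values and on the counts without a block. Malat1 did not pass with edgeR over all libraries, with log2 fold changes of -0.98 ± 0.50 (adjusted p = 0.114) in PBS and -0.37 ± 0.47 (adjusted p = 0.506) in LPS animals. Without Positive PBS 268 and Positive LPS 266 it was lower in both, at -1.90 ± 0.22 (adjusted p = 3.31e-06) and -0.96 ± 0.20 (adjusted p = 0.000508). That pair was chosen because nuclear RNAs, Malat1 among them, were highest there, so these values are not independent of the choice. With the animal as a block, the PBS value was -1.36 ± 0.39 (adjusted p = 0.00804). Neat1 was lower in PBS animals at -1.69 ± 0.63 (adjusted p = 0.0339). Its LPS value was -1.22 ± 0.58 (adjusted p = 0.0755), which the block took to -1.37 ± 0.29 (adjusted p = 0.000834) and the 2 omitted libraries to -2.09 ± 0.44 (adjusted p = 0.000617). The PBS call of Neat1 was lost without Input PBS 268, 272 or 273 and without Positive PBS 272, 273 or 506, with values between -1.69 and -1.51.

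Carriers of microRNAs were lower in the positive fraction where they passed: 7 of 10 were called in PBS and 6 of 10 in LPS animals, all lower. Lower calls made up 18.8% and 25.8% of all genes, and 70 and 85 of the 176 members. A930011O12Rik, by its RefSeq name a host transcript of a neuronal microRNA but not one of the 10, held 9693, 6337, 9207 and 8757 normalised counts in Input PBS and 3984, 1363, 1884 and 1707 in Positive PBS, without overlap. Its log2 fold changes were -1.93 ± 0.44 (adjusted p = 0.00163) and -1.63 ± 0.41 (adjusted p = 0.00214). A330023F24Rik, which carries the miR-29 pair, had -1.72 ± 0.61 (adjusted p = 0.0285) in PBS animals. In LPS animals it had -1.02 ± 0.56 (adjusted p = 0.126), which the block took to -1.13 ± 0.31 (adjusted p = 0.00487) and the 2 omitted libraries to -1.82 ± 0.41 (adjusted p = 0.0011). It was also called there by limma, on the deposited log2 values and on the counts without a block. Its PBS call was lost without Input PBS 268 or Positive PBS 272, 273 or 506, with values between -1.62 and -1.55. 2610203C20Rik, the miR-125b carrier, had -0.98 ± 0.16 (adjusted p = 5.2e-05) and -1.03 ± 0.15 (adjusted p = 9.3e-06). Mir22hg had -0.76 ± 0.15 (adjusted p = 0.000417) and -0.48 ± 0.14 (adjusted p = 0.0058).

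Pseudogenes moved in both directions. Of 35, 9 were lower and 5 higher in PBS animals, and 12 were lower and 9 higher in LPS animals. These calls made up 40% and 60% of the pseudogenes, near the 39.8% and 53.4% of all genes. Tmem181b-ps, a transcribed copy of a transmembrane protein gene, held 6407, 5167, 5843 and 6295 in Input PBS and 2354, 1422, 1432 and 1572 in Positive PBS, with log2 fold changes of -1.81 ± 0.21 (adjusted p = 1.17e-06) and -1.55 ± 0.19 (adjusted p = 1.76e-06). Pseudogenes share sequence with their parent genes, and how the counting divided such reads is not given in the sources used here, so their values are uncertain.

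The 3 members over 2-fold higher in the positive fraction of PBS animals were the pseudogenes Hmga2-ps1, Znf41-ps and Gm6548. Hmga2-ps1 (minus strand of chr1:176834624-176836133), a copy of a chromatin protein gene, held 24.2, 42.9, 18 and 21 normalised counts in Input PBS and 349, 457, 385 and 421 in Positive PBS. In LPS animals it held 10.5, 32.2, 43.5 and 24.6 in input and 291, 481, 386, 311 and 429 in the positive fraction, so the lowest positive library was above the highest input library by a wide margin. With a mean of 206 counts over all libraries, it reached the minimum through the positive fraction alone, so its log2 fold changes of 3.93 and 3.77 are given as a description. Znf41-ps, Gm6548, Btbd19 and 1110038B12Rik also had Input PBS means under 200 counts, but reached 200 in Input LPS. Their values in PBS animals were thus not fully independent of how they were chosen. Hmga2-ps1 lies antisense to Sdccag8, whose own values were 0.24 and -0.01 and were not called. For scale, the microglial receptor gene Csf1r had 4.23 and 4.05.

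Znf41-ps, a zinc finger pseudogene, held 195, 224, 137 and 189 in Input PBS and 674, 551, 509 and 622 in Positive PBS, with 1.66 ± 0.14 (adjusted p = 2.77e-08) and, in LPS animals, 2.55 ± 0.14 (adjusted p = 4.09e-11). Gm6548, a pseudogene of the elongation factor gene Eef1a1, had 1.253 ± 0.17 (adjusted p = 6.72e-06) and 0.91 ± 0.15 (adjusted p = 5.59e-05), whereas Eef1a1 itself had 0.30, under the fold required, and 0.73, which was called. Gm20605 had 0.99 ± 0.18 (adjusted p = 0.000255) and 1.19 ± 0.18 (adjusted p = 1.38e-05). It overlaps the coding gene Lrch4 on the same strand, which had 1.30 and 1.47 and was called in both treatments. 2810025M15Rik, antisense to Rasal2, had 0.996 ± 0.14 (adjusted p = 1.87e-05) and 0.91 ± 0.14 (adjusted p = 1.99e-05). Btbd19, coding in RefSeq, had 0.55 ± 0.17 (adjusted p = 0.0139) and 0.95 ± 0.16 (adjusted p = 6.71e-05). 9530082P21Rik, among the 10 members with the highest means, was at 0.44 ± 0.14 (adjusted p = 0.0184) in PBS and 0.17 ± 0.14 (adjusted p = 0.294) in LPS animals. The PBS call of 9530082P21Rik was lost without Input PBS 268 or 506 or Positive PBS 272 or 273, at 0.34 to 0.38.

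**Figure D3:**
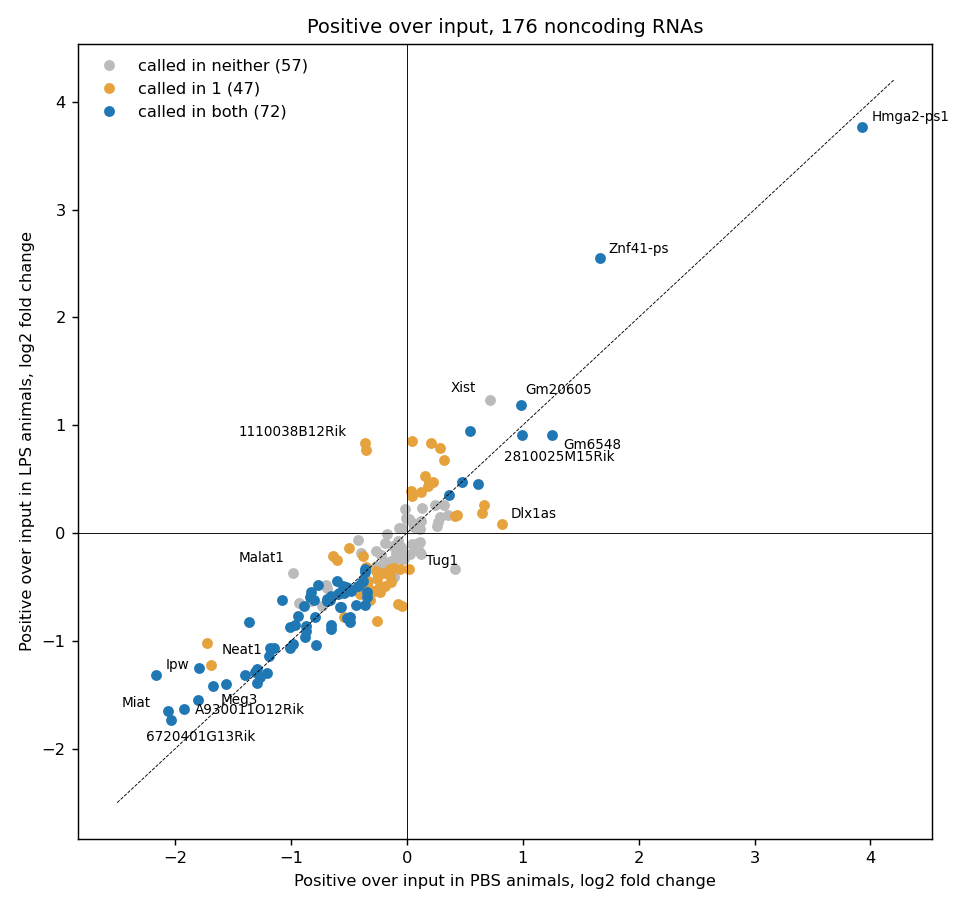
Log2 fold change of positive over input in PBS animals (horizontal) and LPS animals (vertical) for the 176 noncoding RNAs, each point 1 RNA and the dashed line equality, coloured by whether edgeR's test called it in both treatments (72), in 1 or in neither (57). Most called RNAs lie below 0 on both axes, with Hmga2-ps1 at 3.93 and 3.77.

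The next comparison asked what LPS changed among RNAs on tagged ribosomes, Positive LPS over Positive PBS. Of the 176 members 52 were called, 17 higher and 35 lower with LPS, against 33.8%, 19% and 14.9% of all genes tested. The median log2 fold change of the members was -0.04 and that of all genes 0.01. The split of the calls depended on the scaling: the deposited log2 values gave 20 higher and 24 lower, and a fit with all 18 libraries gave 21 higher and 23 lower. Without Positive PBS 268 and Positive LPS 266 there were 53 calls. Neutrophil markers, which sum RNA of a blood cell, ranged from 304 to 821 normalised counts in Positive LPS and from 30.6 to 123 in Positive PBS, with 1 to 3 of the 6 under 1 count in each Positive PBS library, and their part in the values below was not tested.

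The members that fell most were antisense partners of homeobox genes that specify forebrain interneurons. Dlx1as (minus strand of chr2:71530638-71537891) held 1029, 1097, 1159.6 and 903 normalised counts in Positive PBS and 477, 338, 186, 230.3 and 474 in Positive LPS, without overlap, a log2 fold change of -1.62 ± 0.22 (adjusted p = 1.72e-05). In input it held 548, 578, 508 and 741 with PBS and 386, 294, 257 and 346 with LPS, a change of -0.89 ± 0.24 (adjusted p = 0.0166). The input call was lost without Input PBS 506 (-0.76) or Input LPS 270 (-0.79). Dlx6as1 (Dlx6os1 in RefSeq) held 647, 599.5, 546 and 806 in Positive PBS and 337, 264, 94.7, 124 and 316 in Positive LPS, a change of -1.52 ± 0.34 (adjusted p = 0.00183). In input its value was -0.78 ± 0.36 (adjusted p = 0.167), which the block took to -0.94 ± 0.29 (adjusted p = 0.0356). The coding genes on the other strand were not called: for Dlx1 the positive libraries gave -0.51 and the input libraries -0.00, and Dlx6 had -0.29 and -0.02. The difference between sense and antisense values was not tested.

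1500004A13Rik, Gm2115 and Gm15663 were lowered by LPS in both fractions. 1500004A13Rik held 729.6, 753, 697 and 758 in Positive PBS and 388, 326, 172, 190.3 and 363 in Positive LPS, a log2 fold change of -1.35 ± 0.23 (adjusted p = 0.000125). Its input value was -0.77 ± 0.24 (adjusted p = 0.0368), a call lost without Input PBS 268 or 506 or Input LPS 267 or 270, at -0.82 to -0.59. Gm2115, coding in RefSeq, gave -0.97 ± 0.15 (adjusted p = 4.85e-05) in the positive fraction and -0.70 ± 0.15 (adjusted p = 0.00411) for input. Gm15663, at the edge of the minimum count, gave -0.97 ± 0.12 (adjusted p = 4.36e-06) and -0.66 ± 0.12 (adjusted p = 0.000968). Its mean over all libraries was 201 counts, so it reached the minimum with the help of the PBS groups, where it was higher. Its changes and their p-values were therefore not independent of how it was chosen.

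Sox2ot, a neural lncRNA that spans the stem cell gene Sox2, was the member with the lowest input value. It held 908, 1639, 1072 and 1021 normalised counts in Input PBS and 485, 531, 344 and 598 in Input LPS, without overlap, a log2 fold change of -1.24 ± 0.19 (adjusted p = 0.000173). In the positive fraction it held 479, 491, 472 and 362 and 289, 307, 220.2, 245 and 325, a change of -0.70 ± 0.18 (adjusted p = 0.00494). Sox2, on the same strand, had 0.29 in input and -0.30 in the positive fraction, neither of which was called. 2610017I09Rik (Pantr1), a lncRNA of the neural lineage, held 509.9, 700.5, 552 and 502 in Input PBS and 305, 349, 238 and 340.3 in Input LPS. Its change was -0.88 ± 0.14 (adjusted p = 0.000316) in input and -0.88 ± 0.14 (adjusted p = 6.27e-05) in the positive fraction. Among the 10 members on the neural list, Dlx6as1, 2610017I09Rik and Sox2ot were lower and AI854517 higher in the positive fraction, and the other 6 were not called.

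The member raised most was 1110038B12Rik (minus strand of chr17:34950236-34952471), whose span holds 2 GENCODE small nucleolar RNA genes. It held 118, 103, 146 and 103 normalised counts in Positive PBS and 443, 285, 334, 638 and 349 in Positive LPS, without overlap, a log2 fold change of 1.80 ± 0.21 (adjusted p = 2.15e-06). In input it held 138, 174, 165 and 128 and 253, 208, 224 and 235, also without overlap. Every PBS library of either fraction lay under 200 counts, so 1110038B12Rik reached the minimum through the LPS groups. Its LPS changes and their p-values were therefore not independent of how it was chosen. The input change was 0.61 ± 0.21 (adjusted p = 0.0587), which the block took to 0.70 ± 0.22 (adjusted p = 0.0348). 2410006H16Rik, whose span holds 3 such genes, rose in both fractions, by 1.03 ± 0.19 (adjusted p = 0.000263) and 0.81 ± 0.19 (adjusted p = 0.00733). It held 301, 199, 286 and 292 in Positive PBS and 459, 468, 664, 766 and 387 in Positive LPS. Of the 5 members that span small nucleolar RNA genes, these 2 and 9430008C03Rik (Snhg17 in RefSeq, 0.68) rose in the positive fraction, and Rian and Ipw did not pass. RefSeq now gives Snhg names to 3 members that carry older symbols in the matrix: 9430008C03Rik, 2810008D09Rik (Snhg20) and D7Ertd715e (Snhg14).

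Of the 10 carriers of microRNAs, 2 rose with LPS in the positive fraction, AI854517 and Mir22hg, and 1 fell, Sox2ot, described above. Among all genes 19% rose and 14.9% fell. Raver1-fdx1l had -0.61 ± 0.25 (adjusted p = 0.0582), which the block took to -0.80 ± 0.24 (adjusted p = 0.0137). AI854517, which carries the miR-9 arms printed above, held 659, 517, 823 and 625 normalised counts in Positive PBS and 1046, 1118, 1678, 1515 and 984 in Positive LPS, a log2 fold change of 0.95 ± 0.16 (adjusted p = 0.000145) with no overlap. In input it held 976, 915, 1062 and 1019.8 and 1352, 1482, 1859 and 1335, a change of 0.60 ± 0.17 (adjusted p = 0.0206). The input call was lost without Input PBS 272 (0.56) or Input LPS 270 (0.49). Mir22hg, which carries miR-22, held 444, 416, 362 and 369 in Positive PBS and 542, 441, 734, 759.9 and 483 in Positive LPS, a change of 0.57 ± 0.14 (adjusted p = 0.00376). The groups overlapped narrowly, since the lowest LPS library, animal 267, lay under the highest PBS library, animal 268. In input Mir22hg had 0.29 ± 0.15 (adjusted p = 0.204). Of the 3 members on the myeloid list Mir22hg was the one called, with Neat1 at -0.22 ± 0.58 (adjusted p = 0.786) and Gm16702 at -0.05 ± 0.16 (adjusted p = 0.833).

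Among the 35 pseudogenes 5 rose and 4 fell with LPS in the positive fraction, 25.7% against 33.8% of all genes. Znf41-ps held 674, 551, 509 and 622 normalised counts in Positive PBS and 1097, 1367, 1206, 1526 and 1164 in Positive LPS, a log2 fold change of 1.11 ± 0.13 (adjusted p = 3.64e-06) without overlap. In input it had 0.23 ± 0.14 (adjusted p = 0.323). Gm6654, antisense to Med21, held 196, 179.6, 249.6 and 234 and 471, 421, 276, 472 and 408, a change of 0.93 ± 0.18 (adjusted p = 0.000378). Gm6548 rose in input by 1.03 ± 0.16 (adjusted p = 0.000278) and in the positive fraction by 0.69 ± 0.15 (adjusted p = 0.00158). Its parent gene Eef1a1 rose in the positive fraction by 0.45 and was not called in input, at 0.02. 4930570G19Rik, a lncRNA, rose by 0.77 ± 0.18 (adjusted p = 0.00217) in the positive fraction and 0.69 ± 0.18 (adjusted p = 0.0134) in input, a call lost without Input LPS 266 (0.60).

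None of the 9 members listed for nuclear architecture and X inactivation, which include the cytoplasmic 2900097C17Rik, passed for LPS in the positive fraction with edgeR, where 1 had an unadjusted p under 0.05, and DESeq2 called 0. For Malat1 the log2 fold change was 0.83 ± 0.47 (adjusted p = 0.174), and without Positive PBS 268 and Positive LPS 266 it was 1.16 ± 0.22 (adjusted p = 0.000624). Without Positive PBS 268 alone it was 1.74 ± 0.40 (adjusted p = 0.0027), and without Positive LPS 266 alone 0.24 ± 0.40 (adjusted p = 0.655). Miat gave 0.44 ± 0.28 (adjusted p = 0.225) over all libraries and 0.46 ± 0.17 (adjusted p = 0.0461) without that pair. The pair was chosen for its high values of nuclear RNAs, so the fits without it are a description. Tug1 had an adjusted p of 0.00804 at a log2 fold change of -0.26 ± 0.07, under the fold required. None of the 5 imprinted members passed with edgeR, none had an unadjusted p under 0.05 and DESeq2 called 0. Meg3 had 0.18 ± 0.20 (adjusted p = 0.49), and without Positive PBS 268 alone 0.46 ± 0.17 (adjusted p = 0.0411).

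**Figure D4:**
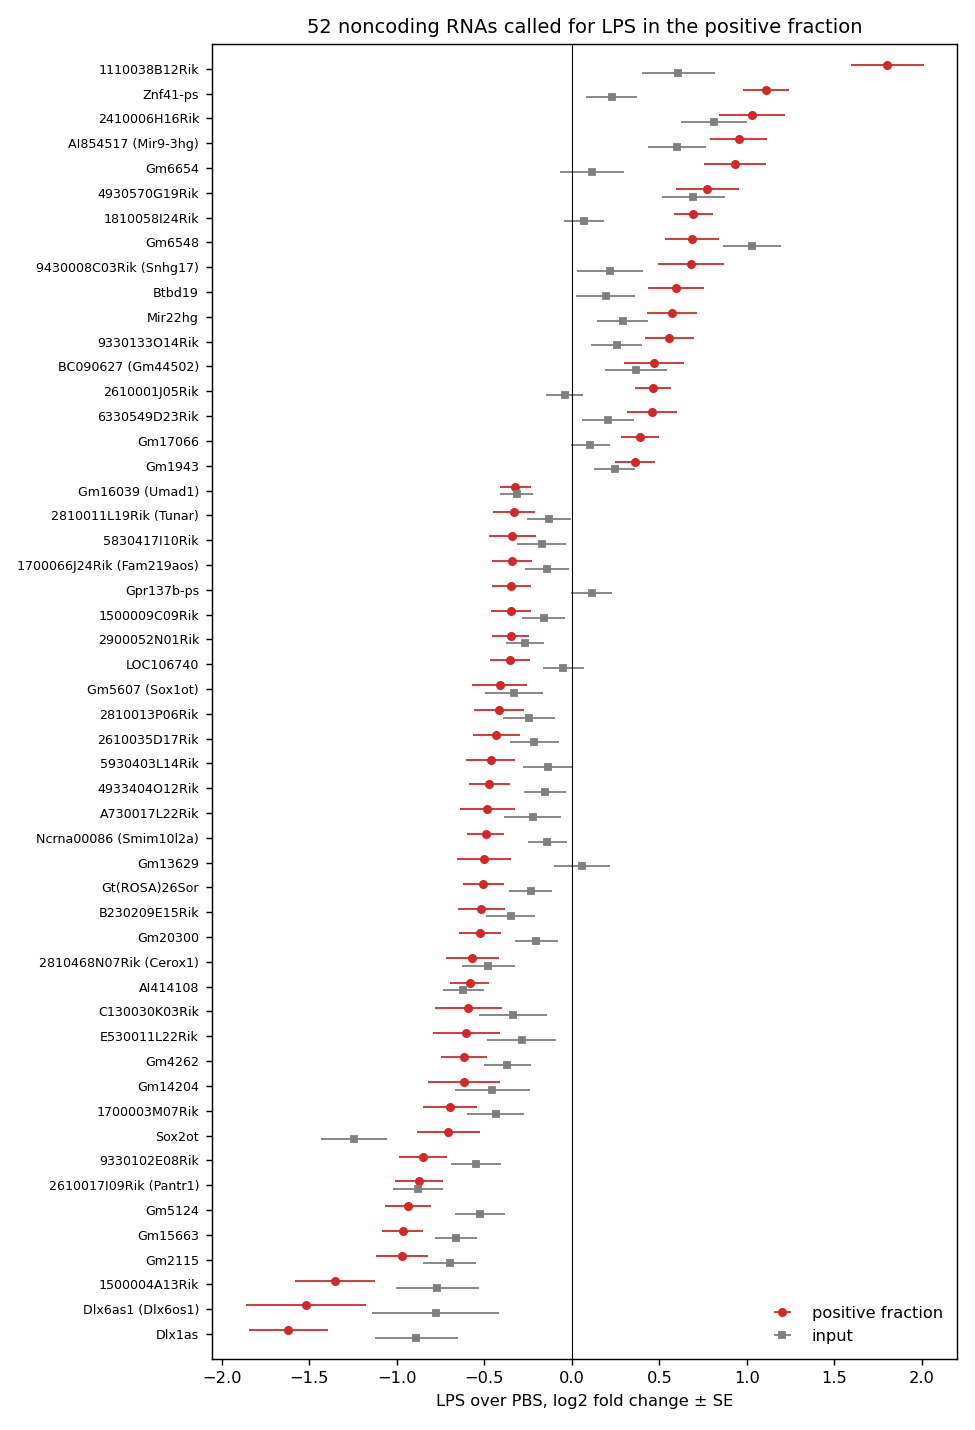
Log2 fold change of LPS over PBS, ± SE, for the 52 noncoding RNAs called in the positive fraction, with the value in the positive fraction (red circles) and in input (grey squares). The values run from -1.62 for Dlx1as to 1.80 for 1110038B12Rik, and all 14 RNAs called in input are among these 52.

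In input, Input LPS over Input PBS, 14 members were called, 4 higher and 10 lower, against 12.4%, 7.16% and 5.26% of all genes tested. The deposited log2 values gave 5 higher and 7 lower. All 14 were called in the same direction in the positive fraction. The number fell to 8 without Input LPS 270, to 8 when animals 506 and 507 were both left out and to 4 in female animals alone. Among the input libraries animal 270 was the lowest of Input LPS for Neat1, A930011O12Rik, A330023F24Rik, Dlx6as1 and 1500004A13Rik. Oligodendrocyte markers ranged from 55516 to 84404 normalised counts in Input LPS and from 87589 to 140158 in Input PBS, all 5 being detected in each group, and neutrophil markers from 451 to 1217 and from 150 to 418. Their part in the input calls was not tested.

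Whether the LPS effect itself differed between the fractions was asked with the interaction of fraction and treatment. With edgeR's test 5 members were called, all 5 with a more positive LPS change in the positive fraction and 0 with a more negative one, against 6.88%, 5.46% and 1.42% of all genes tested. At an unadjusted p under 0.05 there were 13 members, and DESeq2 called 6. The 5 members called by edgeR were 1110038B12Rik at 1.19 ± 0.29 (adjusted p = 0.0157), 6530402F18Rik at 1.13 ± 0.33 (adjusted p = 0.0463), Znf41-ps at 0.88 ± 0.19 (adjusted p = 0.00884), 1810058I24Rik at 0.62 ± 0.16 (adjusted p = 0.022) and 2610001J05Rik at 0.50 ± 0.15 (adjusted p = 0.0468), each as a difference of log2 fold changes. 1110038B12Rik reached the minimum count through the LPS groups and was highest in Positive LPS. Its value was thus not independent of how it was chosen. With the animal as a block 11 members were called, the same 5 among them, 6 with a more positive and 5 with a more negative change in the positive fraction. The block added Sox2ot, whose fall was the smaller there, at 0.57 ± 0.16 (adjusted p = 0.0346) and, with a more negative LPS change in the positive fraction, Dlx1as at -0.68 ± 0.21 (adjusted p = 0.0474), Dlx6as1 at -0.62 ± 0.14 (adjusted p = 0.0116) and 1500004A13Rik at -0.50 ± 0.14 (adjusted p = 0.0349), along with Gpr137b-ps and Ncrna00086.

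For 6530402F18Rik the log2 fold change with LPS was 0.58 ± 0.23 (adjusted p = 0.0513) in the positive fraction and -0.55 ± 0.24 (adjusted p = 0.137) in input, neither of which passed. It held 329, 308, 304 and 398 normalised counts in Positive PBS and 776, 516, 246, 529.9 and 435 in Positive LPS, against 440.2, 421, 399.8 and 449.6 in Input PBS and 346, 311, 197 and 315 in Input LPS. Animal 270 was the lowest LPS library in both fractions. The transcript overlaps Ntng2 on the same strand, and Ntng2 was lower with LPS in both fractions, -0.40 and -0.75. 1810058I24Rik and 2610001J05Rik are coding in RefSeq. The latter held 902, 809.7, 1085 and 998 in Positive PBS and 1363, 1285, 1112, 1464 and 1313 in Positive LPS, without overlap. The calls of 6530402F18Rik and 2610001J05Rik were each lost in 22 alternatives, among them the omission of most single libraries, at values of 0.91 to 1.28 and 0.43 to 0.54. By number of calls, leaving out Input PBS 272 or 273 left 2, and leaving out Input PBS 506, Input LPS 266, 270 or 507, Positive PBS 268 or 272, or Positive LPS 267, 271 or 507 left 3. With animals 506 and 507 left out, or with females alone, none was left, while 10 and 5 had an unadjusted p under 0.05.

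Xist was described in female animals. In Positive PBS the 2 females held 25994 (animal 268) and 4361 (animal 506) normalised counts, and in Positive LPS the 4 females held 33530, 1148, 1667 and 15357 for animals 266, 270, 271 and 507. Input libraries of females held 10464 and 8008 with PBS and 6488, 4363 and 6620 with LPS. Xist thus exceeded the input of the same animal in 268, 266 and 507 and was below it in 506 and 270. Males held 83.0 to 174. In a fit of female animals alone the LPS effect in the positive fraction was -0.23 ± 1.07 (adjusted p = 0.896), and positive over input was 0.72 ± 1.247 (adjusted p = 0.708) with PBS and 1.16 ± 0.98 (adjusted p = 0.343) with LPS.

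Protein partners of noncoding RNAs were read from lists of paraspeckle, 7SK, signal recognition, RNase P and MRP, Xist-binding and speckle proteins. The RNAs of the 7SK, signal recognition, RNase P and RNase MRP particles were not members. Of 44 tested genes, 12 rose and none fell with LPS in the positive fraction (27.3% called, against 33.8% of all genes, of which 19% rose; median log2 fold change 0.23), and in input edgeR called 0, with 9 at an unadjusted p under 0.05 and 0 called by DESeq2. Among those that rose were Srsf2, a splicing factor of speckles, at 0.77 ± 0.09 (adjusted p = 1.51e-06), and Rpp40, a subunit of RNase P, at 0.98 ± 0.22 (adjusted p = 0.00153). Rbm14, a paraspeckle protein, rose by 0.37 ± 0.08 (adjusted p = 0.00159), while Nono and Sfpq were not called. Messages of 4 of the 8 paraspeckle proteins were higher in the positive fraction than in input of PBS animals and of 7 in LPS animals, against 21% and 27.6% of all genes, with Nono in LPS animals at 0.71 ± 0.07 (adjusted p = 6.52e-08).

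What the members share beyond their counts was read from the annotation. By Entrez identifier 167 of 176 matched RefSeq (GRCm38.p6), where 120 were lncRNAs or antisense RNAs, 34 pseudogenes and 13 protein-coding, and 35 had another symbol. The 13 coding members split 2 higher and 2 lower between the fractions in PBS animals and had a median log2 fold change of 0.12, whereas the 120 lncRNAs split 7 higher and 52 lower with a median of -0.35. Overlap with a coding row of at least 20 mean counts was found for 14 members on the same strand and 34 on the opposite strand. The 128 members without such an overlap split 9 higher and 52 lower in PBS animals and 13 higher and 26 lower for LPS in the positive fraction. Of all genes, 21% were higher and 18.8% lower in PBS animals, and 19% rose and 14.9% fell with LPS in the positive fraction. Within 1 Mb of another member lay Malat1 and Neat1, the trio of Meg3, Rian and Mirg, and the 4 transcripts A230073K19Rik, C230091D08Rik, Ipw and D7Ertd715e of the Prader-Willi domain. The 3 of these 4 neighbours other than Ipw were lower, at -0.64, -0.35 and -1.31 on the log2 scale with PBS. None of the small structured RNAs listed was a member: Rn7sk, Rn7s1, Rn7s2 and Bc1 were listed at 0 in these libraries, which were made from polyadenylated RNA.

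Promoters (RefSeq, 250 bases before to 50 after the start) were at hand for 109 members. The letters GGANTTTCC of a kappaB-like site, searched on both strands, occurred in 0 of the 14 promoters of 9 members raised by LPS in the positive fraction and in 0 of the 28 promoters of 24 lowered members, against 1.254% of all 32851 promoters. The AP-1 letters TGANTCA occurred in 1 of 14 and 1 of 28, against 7.81% of all. The GAS letters TTCNNNGAA occurred in 1 of 14 and 2 of 28, against 8.30%, and the CRE letters TGACGTCA in 1 of 14 and 1 of 28, against 1.79%. The CRE letters, which hold no AP-1 match, lay in a promoter of AI854517.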

How the data were processed

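RNA was measured by TRAP-RNAseq in 18 libraries from 9 animals, made from polyadenylated RNA. The authors aligned reads to Mm10 and counted them with Strand NGS, per the study's methods, and deposited estimated counts per gene, of which 81.4% of the nonzero values were not whole. They also deposited log2 values scaled with DESeq, which were used as an alternative only. How reads shared by overlapping genes or near-identical copies were divided is not given in the sources used here.

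Estimated counts were rounded and scaled by median-of-ratios size factors over 15766 genes in 17 libraries. A gene was tested when every library of some group exceeded 20 normalised counts, which 14803 genes met, and the 4 groups were fitted with edgeR 4.0.16 (quasi-likelihood test, R 4.3.3). A call needed a Benjamini-Hochberg adjusted p under 0.05 and a log2 fold change beyond 0.32. The test was checked on simulated counts. Alternatives used DESeq2 1.42.0, limma 3.58.1, other scalings, sex as a term, left-out libraries and other minimum counts of 100 and 500.

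Input and positive libraries of one animal are paired in the labels. Their deviations from the group means correlated in all 8 pairs, with r of 0.16 to 0.52 across genes and 0.53 to 0.82 across the members. The block used the animal as a fixed term for contrasts between fractions, and limma with an estimated correlation within animals (0.45) for the other contrasts. For LPS effects, a shift from the main fit to the block therefore includes the change of method. With limma on the counts and no block, 1110038B12Rik and Dlx6as1 were not called for LPS in input.

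The members, gene lists and naming rules were chosen with earlier results of these data known. Named were members of the lists, the 10 with the highest means, the 5 most raised and 5 most lowered calls of each comparison, the 8 with the widest spread and the edge of the minimum count. Other names were chosen after their values were seen. Library totals set the counting precision. P-values set a difference against the spread between libraries within groups, pooled over the groups. The main fit had no term for the animal. Its contrasts between fractions, and the difference of the LPS effect, therefore treated paired libraries as independent. The input library of animal 271, at 1252 counts, entered an alternative only.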

Additional observations from a re-analysis of the deposited data

Results flagged for a closer look

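Groups of 4 or 5 libraries were searched for a library far from the others, by Dixon's ratio at its 95% critical value. Of 700 groups over all members 44 were flagged (6.29%), where chance gives about 1 in 20, 30 of them in the positive fraction and 14 in input. Among the named members, Positive PBS 268 stood above the other PBS libraries for Malat1 (28762 normalised counts), Miat (5579.9), Neat1 (4066), Tmem181b-ps (2354), A330023F24Rik (1691), 6720401G13Rik (1224), 4933439C10Rik (579), Mirg (396) and Ipw (339.8). Positive LPS 266 stood above its group for Malat1 (49535) and Gm16702 (233), and Positive LPS 271 for 2900097C17Rik (47135). Positive PBS 506 was low for Sox2ot (362) and Positive PBS 272 for 2410006H16Rik (199).

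In input, animal 270 was low in its LPS group for A930011O12Rik (4675), A330023F24Rik (1158) and 1500004A13Rik (275). Other such libraries were Input PBS 506 for Rian (14271), Input LPS 507 for Znf41-ps (240.4), Input LPS 266 for 4930570G19Rik (722) and Input PBS 268 for Rdh18-ps (184).

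The LPS effect differed between the fractions, by edgeR's interaction test, for 1110038B12Rik (1.19 on the log2 scale), 6530402F18Rik (1.13), Znf41-ps (0.88), 1810058I24Rik (0.62) and 2610001J05Rik (0.50). The calls of 6530402F18Rik and 2610001J05Rik were lost in 22 alternatives each. 1110038B12Rik reached the minimum count through the LPS groups, so its value was not independent of how it was chosen. In the input library of animal 271, which entered an alternative fit only, Meg3 held 5 of the 1252 counts. The causes of these values were not tested.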

How the results depend on the processing

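Of 91 called values of 44 named members, 59 kept their call in all alternatives and 129 single results lost it. Of 129 uncalled values, 29 were called in at least 1 alternative, and no called value changed sign. Scaling by total count moved the median of all genes by -0.12 and -0.18 for positive over input in PBS and LPS animals, the fit with all 18 libraries by -0.12 in PBS animals, and the deposited log2 values by -0.13 and -0.11. The median of the members for LPS in the positive fraction, -0.04, became 0.01 with all 18 libraries, where that of all genes was 0.06.

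In female animals alone the calls numbered 33 for LPS in the positive fraction, 4 for LPS in input, 43 for positive over input in PBS animals and 0 for the difference between fractions, with 5 there at an unadjusted p under 0.05. With animals 506 and 507 left out they were 8 for LPS in input and 0 for the difference, with 10 at an unadjusted p under 0.05. A minimum mean count of 500 gave 26, 7, 43, 50 and 3 for LPS in the positive fraction, LPS in input, positive over input (PBS, then LPS animals) and the difference, and a minimum of 100 gave 24 for LPS in input and 132 and 167 for positive over input. Scaling by total count and all 18 libraries each gave 3 for the difference, and the replicate block gave 11. The block gave 50, 17, 103 and 112 for the other 4 comparisons. It also called, for positive over input in PBS animals, 1110038B12Rik (-0.37, adjusted p = 0.0266), 6530402F18Rik (-0.36, 0.0227), Dlx6as1 (0.44, 0.00183), 4933439C10Rik (-0.88, 0.0319), 2410006H16Rik (-0.40, 0.0285) and Gm16702 (-0.37, 0.0218), and in LPS animals 2410006H16Rik (-0.35, 0.0354) and AI854517 (-0.34, 0.0019), each as a log2 fold change and edgeR's adjusted p. Leaving out each library in turn gave 42 to 55, 8 to 16, 71 to 91, 97 to 116 and 2 to 6 calls, and a median spread between positive libraries of 0.23 to 0.26. The causes were not tested.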
